A study of Mus musculus with 12 samples.

Results

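The genes described here are 10 members of the transcriptional response to low oxygen (Egln3, Ankrd37, Slc2a1, Hk2, Pfkfb3, Adm, Vegfa, Ndrg1, Bnip3 and Car9), followed in mouse lung after bleomycin, with and without the transcription factor Fra-1. They were taken by gene symbol, as a list of known hypoxia response genes, out of 19938 genes that have an array feature (a transcript cluster) annotated with 1 symbol. All 10 were measured, 9 of them by 1 cluster each and Bnip3 by a pair, of which the brighter is used. Left lungs were collected 5 days after 30 µl of PBS, with or without 0.075 U of bleomycin, was instilled into the trachea, and RNA of each lung was hybridised to 1 Affymetrix MoGene 1.0ST array. There were 4 groups of 3 mice: bleomycin-treated Fra-1-/- mice (KOT, mice 72, 80 and 81), PBS-treated Fra-1-/- mice (KOC, mice 53, 55 and 67), bleomycin-treated Fra-1+/+ mice (WTT, mice 160, 161 and 164) and PBS-treated Fra-1+/+ mice (WTC, mice 76, 157 and 158). All mice carried floxed Fra-1 alleles on a mixed C57/129S background. The Fra-1-/- mice also carried a Meox2 (Sox2)-Cre that acts in the embryo and not in extra-embryonic tissues, and the Fra-1+/+ mice carried no Cre, so the transgene and the deletion cannot be told apart. The labels give an age of 2 months for every mouse, and the study's methods give an older age range.

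Cells sense oxygen through prolyl hydroxylases of the Egln family, which in the presence of oxygen mark the alpha subunits of hypoxia-inducible factor (HIF) for capture by the von Hippel-Lindau protein and degradation. When oxygen is short the alpha subunits, Hif1a and Epas1, persist, pair with Arnt and bind a short DNA core in the hypoxia response element (HRE) of their targets. The targets raise glucose uptake and glycolysis, blood vessel growth, mitochondrial turnover and pH control, and they include Egln3 itself, which closes a feedback loop. In lung, Epas1 is abundant in endothelium, Vegfa is made by the alveolar epithelium also with normal oxygen, and Hif1a and its targets are induced in inflammatory cells. Fra-1, encoded by Fosl1, is a Fos-family subunit of AP-1, which binds the sequence TGAGTCA.

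The DNA before the transcription starts of these genes shows where the HRE core, written ACGTG or GCGTG, occurs. The promoters come from RefSeq on GRCm38.p6, and the 250 bases before each start were searched on both strands. A CACGTG counts as a match on each strand. Of the 10 genes, 9 have an entry (Ndrg1 does not), and 9 of 9 hold at least 1 core before at least 1 start, against 41.5% of 27025 genes and 38.6% of 32851 promoters in the table. The form ACGTG occurred in 8 of the 9, against 18.5% of genes, and GCGTG in 6, against 30.9%. Vegfa enters each of these counts only through a start that lies downstream of its other start, which has 0 cores. Pfkfb3 enters the GCGTG count likewise only through its downstream start. The genes were listed for this response, so these shares describe the list, and a match of letters is not a bound site. Sequences are shown for Egln3, for Ankrd37 and Slc2a1, which rose with bleomycin in both genotypes, for Adm, which rose in Fra-1+/+ lungs, and for Bnip3, which had 5 matches, the highest number among the 9 genes, and passed no test. Each reads 5′ to 3′ on the strand of the gene and ends at the base before the start, with the cores in capitals (CACGT and CACGC are the cores read on the opposite strand).
Egln3 (chr12:54203875-54204124, minus strand): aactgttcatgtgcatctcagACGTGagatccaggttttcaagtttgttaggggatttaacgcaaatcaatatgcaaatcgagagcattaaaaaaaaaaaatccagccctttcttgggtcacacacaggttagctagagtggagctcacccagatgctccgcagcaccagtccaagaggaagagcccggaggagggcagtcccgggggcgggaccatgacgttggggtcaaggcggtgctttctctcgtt
Ankrd37 (chr8:45999851-46000100, minus strand): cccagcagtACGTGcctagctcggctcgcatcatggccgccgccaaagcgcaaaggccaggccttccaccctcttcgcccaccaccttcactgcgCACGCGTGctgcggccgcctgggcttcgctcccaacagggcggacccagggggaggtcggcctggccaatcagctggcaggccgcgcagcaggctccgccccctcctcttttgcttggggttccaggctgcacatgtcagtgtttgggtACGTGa
Slc2a1 (chr4:119108495-119108744, plus strand): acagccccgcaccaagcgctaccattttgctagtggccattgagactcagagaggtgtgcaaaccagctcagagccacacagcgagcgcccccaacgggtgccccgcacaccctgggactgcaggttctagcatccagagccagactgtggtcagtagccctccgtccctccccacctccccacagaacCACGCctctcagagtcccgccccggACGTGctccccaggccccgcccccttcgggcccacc
Adm (chr7:110627407-110627656, plus strand): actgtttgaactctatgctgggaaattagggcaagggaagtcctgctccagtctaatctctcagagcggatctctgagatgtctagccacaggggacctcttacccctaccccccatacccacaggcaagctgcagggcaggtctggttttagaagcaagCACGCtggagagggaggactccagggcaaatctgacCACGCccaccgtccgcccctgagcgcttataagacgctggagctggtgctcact
Bnip3 (chr7:138909507-138909756, minus strand): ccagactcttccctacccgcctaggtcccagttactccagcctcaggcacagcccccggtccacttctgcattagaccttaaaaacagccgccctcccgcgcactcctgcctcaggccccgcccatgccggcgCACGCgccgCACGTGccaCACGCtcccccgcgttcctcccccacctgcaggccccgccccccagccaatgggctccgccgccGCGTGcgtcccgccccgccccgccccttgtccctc
In Egln3 the only core begins 229 bases before the start. In Ankrd37 a core lies 6 bases before the start and another 241 bases before it, with an overlapping pair between them. In Slc2a1 both cores lie within 61 bases of the start, and in Adm both are of the GCGTG form. In Bnip3 a CACGTG lies between a pair of further cores. Hk2 had 2 matches, and Pfkfb3 had 3 before its downstream start and 1 before its upstream start. Vegfa had 2 before its downstream start, which lies within the gene as counted from the upstream start, and 0 before the upstream start. The AP-1 letters TGAGTCA occurred in 1 of the 9 genes, Car9, against 5.16% of genes, and the last 100 bases before its start are shown with this site and the HRE core in capitals.
Car9 (chr4:43506926-43507025, plus strand): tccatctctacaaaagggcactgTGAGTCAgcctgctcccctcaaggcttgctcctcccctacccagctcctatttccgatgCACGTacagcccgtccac

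**Figure D1:**
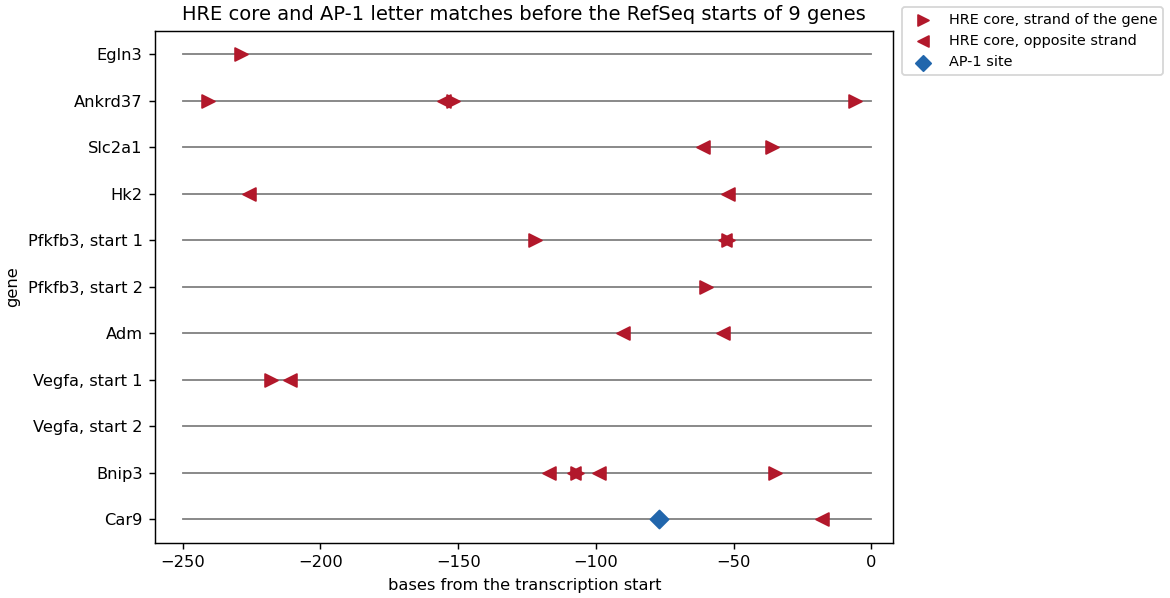
Position of HRE core matches (triangles, pointing by strand) and of the AP-1 site (diamond) in the 250 bases before the RefSeq starts of 9 genes, 1 line a start, with the distance from the start in bases on the horizontal axis. Bnip3 has 5 core matches, Ankrd37 has 4, one start of Vegfa has 0, and the AP-1 site lies in Car9.

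The targeted gene and the labels were checked on all arrays. Fosl1 lay between 7.28 and 7.33 in KOT and between 6.26 and 6.68 in KOC mice, against 7.81 to 8.32 in WTT and 6.37 to 6.86 in WTC mice, on the log2 scale of the arrays. Whether its probes lie in the deleted part is not known, so this does not check the genotype. All 12 arrays had the Y-linked genes Eif2s3y (8.52 to 8.93), Kdm5d and Uty above Xist (4.47 to 4.94), which goes against the label of female mice, alike in the 4 groups. The 6 Fra-1-/- mice and WTC 76 have low animal numbers (53 to 81) and the other 5 Fra-1+/+ mice have high ones (157 to 164), so whatever goes with the number cannot be told apart from the genotype. The surfactant gene Sftpc was at 13.64 to 14.07 in all mice.

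Bleomycin raised a part of the list and lowered Vegfa, and fewer of the genes passed in Fra-1-/- than in Fra-1+/+ lungs. In KOT against KOC mice 3 of the 10 genes rose (Ankrd37, Slc2a1 and Ndrg1) and 1 fell (Vegfa), where 7.42% of 23410 clusters rose and 7.98% fell. In WTT against WTC mice 6 rose (Egln3, Ankrd37, Slc2a1, Hk2, Adm and Ndrg1) and 1 fell (Vegfa), where 10.2% of clusters rose and 11.3% fell. These calls are limma's over all clusters with a symbol, at a p under 0.05 after Benjamini-Hochberg adjustment. Without KOT 80, which lay apart in several genes, the Fra-1-/- count was 5 with Adm added, and without WTC 76 the Fra-1+/+ count was again 7. Other mice left out lowered the counts. Without WTC 157, or without WTC 158, the Fra-1+/+ count was 4. Slc2a1 lost its Fra-1-/- call without KOC 53, KOT 72 or KOT 81. The median log2 difference of the 10 genes was 0.23 in Fra-1-/- and 0.54 in Fra-1+/+ lungs, against 0.02 over all clusters in both. The test of the difference between the responses called 0 of the 10 genes, and it called 0% of all clusters, so the unequal counts are not shown to be a difference between the genotypes. The groups of KOT and KOC mice did not overlap in 4 genes, against 35.4% of all clusters, and those of WTT and WTC mice in 7, against 35.7%. Whole lung was measured, so a change in the number of cells of a type and a change of RNA per cell cannot be told apart.

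**Figure D2:**
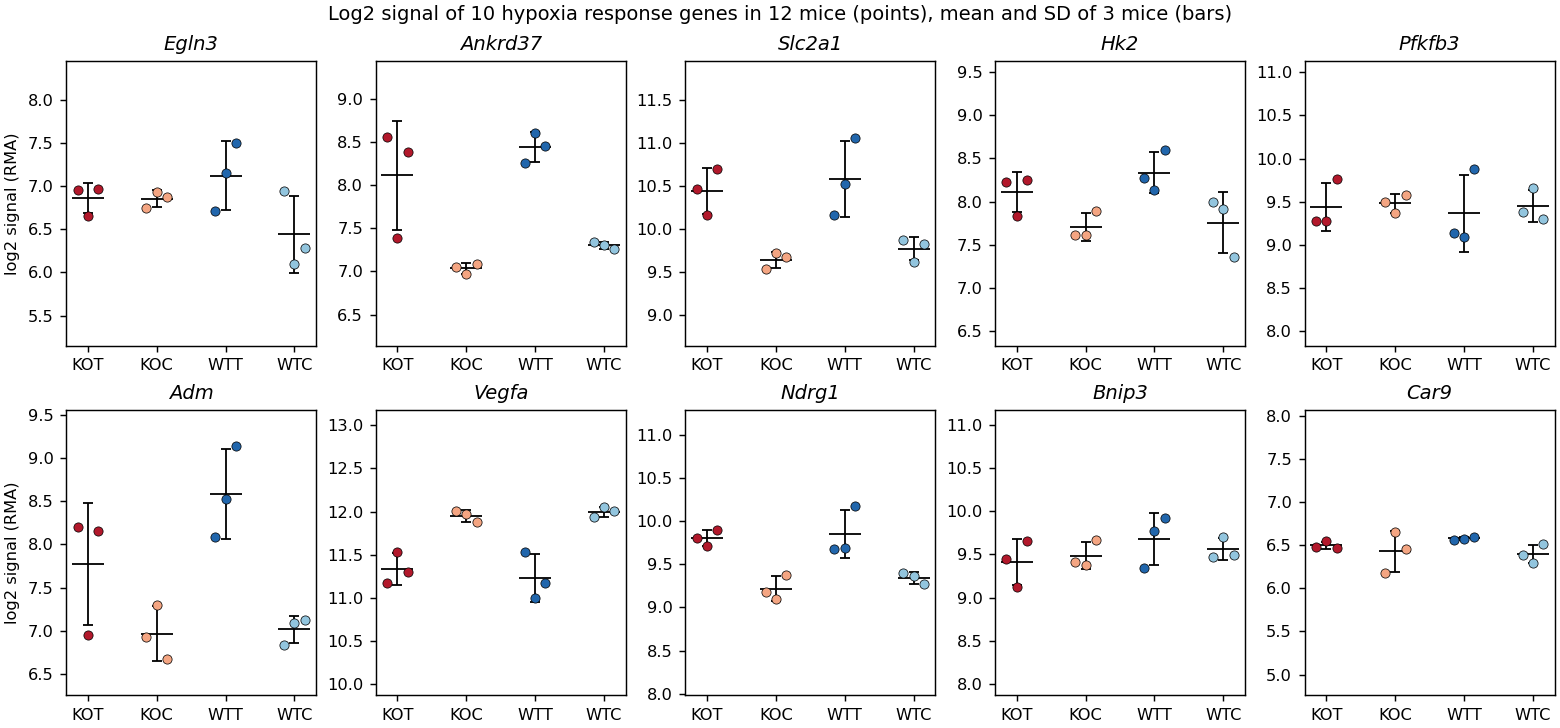
Log2 signal of the 10 genes in 12 mice (1 point a mouse, 3 mice a group, horizontal bar at the mean, whiskers 1 SD), with the groups KOT, KOC, WTT and WTC on the horizontal axis and the same span of log2 units on each vertical axis. Ankrd37 and Slc2a1 are higher and Vegfa is lower in every bleomycin-treated mouse than in any PBS mouse of its genotype, and KOT 80 lies apart from the other KOT mice in Ankrd37 and Adm.

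Egln3, the prolyl hydroxylase that HIF itself induces, passed the test of the bleomycin response in Fra-1+/+ lungs, by a small margin, and not in Fra-1-/- lungs. It measured 6.96, 6.66 and 6.97 in the KOT mice 72, 80 and 81, against 6.75, 6.94 and 6.88 in the KOC mice 53, 55 and 67. It measured 6.72, 7.15 and 7.50 in the WTT mice 160, 161 and 164, against 6.95, 6.09 and 6.29 in the WTC mice 76, 157 and 158. The Fra-1-/- values lay together whatever the treatment, and in Fra-1+/+ lungs WTC 76 was above WTT 160, so the groups overlapped. The log2 difference was 0.01 (95% interval -0.48 to 0.49, adjusted p = 0.99) in Fra-1-/- and 0.68 (SE 0.22, adjusted p = 0.0471) in Fra-1+/+ lungs, a ratio of 1.60 for the second. That call was lost on leaving out any of 10 of the 12 mice, among them WTC 157 (0.51, adjusted p = 0.174), WTT 164 (0.49, adjusted p = 0.173) and each Fra-1-/- mouse, whose values enter through the shared spread (adjusted p between 0.0503 and 0.0629). Without WTC 76 it was 0.93, with an adjusted p of 0.00804.

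The difference between the Egln3 responses, Fra-1-/- minus Fra-1+/+, was -0.67 (SE 0.31, 95% interval -1.36 to 0.01). Its unadjusted p was 0.053 and its adjusted p was 0.963 by limma. Neither level differed by genotype beyond the test: KOT minus WTT was -0.26 (adjusted p = 0.712), and KOC minus WTC was 0.41 (adjusted p = 0.587), the widest gap between PBS groups among the 10 genes. By mean level the order of the groups was WTT (7.12 ± 0.40), KOT (6.86 ± 0.18), KOC (6.85 ± 0.10) and WTC (6.44 ± 0.45, SD, n = 3 each). Each of these means was below the array medians of 7.14 to 7.22, and detection above background was not tested. Only WTT and WTC, the ends of that order, differed by the test among the comparisons made. Of the Egln paralogs, Egln1, the main prolyl hydroxylase with normal oxygen, fell by 0.41 in Fra-1-/- lungs (adjusted p = 0.00546) and, in Fra-1+/+ lungs, by 0.37 (adjusted p = 0.00666). Egln2 differed by -0.04 and -0.01 and passed in neither.

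Over the 12 mice, Egln3 ran with Slc2a1 (Pearson r = 0.69), Hk2 (0.64), Adm (0.64), Ndrg1 (0.57) and Ankrd37 (0.53), and against Vegfa (-0.66), while Pfkfb3 had the weakest relation (0.17). The 5 genes with the highest r were none of the list: C1d (0.94), Eif2b1 (0.92), Tnfrsf26 (0.90), Kdm5c (0.90) and Copb1 (0.89). These are descriptions over mice that share treatments and 1 normalisation, and they were the highest of all clusters with 1 symbol. The C1d signal moved over a narrow range, between 7.05 and 7.17 in KOT, 7.05 and 7.10 in KOC, 7.03 and 7.18 in WTT and 6.92 and 7.11 in WTC mice.

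Among the genes of sugar use, Slc2a1 rose in both genotypes, Hk2 passed in Fra-1+/+ lungs and not in Fra-1-/- lungs, and Pfkfb3 passed in neither. Slc2a1, the glucose transporter Glut1, measured 10.46, 10.16 and 10.70 in KOT against 9.54, 9.72 and 9.68 in KOC mice. It measured 10.17, 10.52 and 11.05 in WTT against 9.87, 9.62 and 9.83 in WTC mice. Every bleomycin-treated mouse was above every PBS mouse, in both genotypes. It rose by 0.79 in Fra-1-/- lungs (SE 0.19, adjusted p = 0.0169) and, in Fra-1+/+ lungs, by 0.81 (SE 0.19, adjusted p = 0.0123), 1.75-fold in the second. The first call was lost without KOC 53, KOT 72 or KOT 81 (0.67 to 0.79, adjusted p between 0.0599 and 0.0793), and the second without WTC 157 (0.73, adjusted p = 0.0509). The responses differed by -0.01, with a 95% interval of -0.61 to 0.59, which leaves room for a difference of nearly the size of the response.

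Hk2, the hexokinase that phosphorylates glucose at the mitochondrial surface, measured 8.22, 7.84 and 8.25 in KOT against 7.62, 7.62 and 7.90 in KOC mice. It measured 8.27, 8.14 and 8.60 in WTT against 7.9997, 7.92 and 7.36 in WTC mice. The Fra-1+/+ groups did not overlap, and KOT 80 was below KOC 67. The difference was 0.40 (SE 0.18, adjusted p = 0.174) in Fra-1-/- and 0.58 (SE 0.18, adjusted p = 0.0411) in Fra-1+/+ lungs. The call was lost without WTC 157, WTC 158, WTT 160, WTT 164, KOC 53, KOC 55 or KOT 72 (0.38 to 0.66, adjusted p between 0.0535 and 0.15). Pfkfb3, the enzyme that makes the activator of phosphofructokinase, measured 9.28, 9.27 and 9.76 in KOT against 9.49, 9.37 and 9.58 in KOC, and 9.13, 9.09 and 9.87 in WTT against 9.38, 9.66 and 9.30 in WTC mice. In each genotype 1 bleomycin-treated mouse (KOT 81 and WTT 164) was above and 2 were below all PBS mice. Its differences were -0.04 (95% interval -0.48 to 0.39) and -0.08 (-0.52 to 0.35), with adjusted p of 0.916 and 0.819.

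In the glycolysis list 16 of 19 genes were measured. In Fra-1-/- lungs 5 of the 16 rose and 0 fell (median 0.17), where 7.42% of all clusters rose. In Fra-1+/+ lungs 7 rose and 0 fell (median 0.20), where 10.2% of all clusters rose. The median over all clusters was 0.02 in both, and the other 11 genes in Fra-1-/- and 9 in Fra-1+/+ lungs did not pass. Pkm, pyruvate kinase, rose by 0.65 in Fra-1-/- lungs (adjusted p = 0.00377) and, in Fra-1+/+ lungs, by 0.86 (adjusted p = 7.21e-04). Ldha, which turns pyruvate into lactate, rose by 0.57 and 0.61, Pgk1 by 0.62 and 0.73, and Pgam1, a mutase of the lower pathway, by 0.64 and 0.78, each past the test in both genotypes. No gene of the list passed in a genotype comparison or in the difference between the responses.

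Of the 2 secreted factors, Vegfa fell in both genotypes, and Adm rose in Fra-1+/+ lungs and did not pass in Fra-1-/- lungs. Adm, adrenomedullin, a peptide that widens vessels and tightens the endothelial barrier, measured 8.21, 6.95 and 8.15 in the KOT mice 72, 80 and 81 against 6.92, 7.30 and 6.68 in KOC mice. It measured 8.09, 8.53 and 9.14 in WTT against 6.83, 7.09 and 7.12 in WTC mice. All WTT mice were far above the WTC mice, and in Fra-1-/- lungs KOT 80 lay within the KOC range while the other KOT mice lay above it. The difference was 0.80 (SE 0.33, adjusted p = 0.127) in Fra-1-/- and 1.57 (SE 0.33, adjusted p = 0.00623) in Fra-1+/+ lungs, where the ratio was 2.97, the highest of the 10 genes. Without KOT 80, the lowest KOT value, the Fra-1-/- difference was 1.21 (adjusted p = 0.00921), and no other mouse left out changed the call. The difference also passed with array weights (1.01, adjusted p = 0.00782). Those weights were 0.56 for KOT 80 and 3.05 for KOT 72, so this is not independent of leaving out KOT 80. Between KOT and WTT mice Adm differed by -0.81 (adjusted p = 0.422). The responses differed by -0.77 (95% interval -1.78 to 0.25, adjusted p = 0.963).

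Vegfa, the main growth factor of blood vessels, moved the other way in both genotypes. It measured 11.17, 11.53 and 11.29 in KOT against 12.005, 11.97 and 11.88 in KOC mice. It measured 11.54, 10.99 and 11.17 in WTT against 11.93, 12.06 and 12.004 in WTC mice. Every bleomycin-treated mouse was below every PBS mouse. It fell by 0.62 in Fra-1-/- lungs (SE 0.13, adjusted p = 0.00857, ratio 0.653) and, in Fra-1+/+ lungs, by 0.76 (SE 0.13, adjusted p = 0.00209, ratio 0.589), and leaving out any 1 mouse changed neither call. The responses differed by 0.15 (95% interval -0.25 to 0.55).

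Of 13 receptors, co-receptors and relatives of VEGF and adrenomedullin, 0 rose and 4 fell in Fra-1-/- lungs, where 7.42% of all clusters rose and 7.98% fell. In Fra-1+/+ lungs 1 rose and 4 fell, where 10.2% of all clusters rose and 11.3% fell. Kdr, the main VEGF receptor, fell by 0.92 in both (adjusted p = 0.00552 and 0.00408). Its co-receptor Nrp1 fell by 0.48 and 0.35, and Ramp2, the partner of the adrenomedullin receptor, fell by 0.46 and 0.58, all past the test. Flt1, the other VEGF receptor of endothelium, fell by 0.33 (adjusted p = 0.0275) in Fra-1-/- lungs and differed by -0.09 (adjusted p = 0.543) in Fra-1+/+ lungs. Nrp2, a co-receptor known from lymphatic vessels, differed by 0.23 (adjusted p = 0.0712) in Fra-1-/- and rose by 0.49 (adjusted p = 0.00159) in Fra-1+/+ lungs. Ramp1 differed by -0.17 (adjusted p = 0.475) and fell by 0.66 (adjusted p = 0.00749) in the same order.

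Several markers of alveolar epithelium and of endothelium fell beside Vegfa and Kdr in both genotypes. Of 6 alveolar type 1 cell markers (Ager, Hopx, Aqp5, Pdpn, Rtkn2 and Akap5), 4 fell in each genotype, and their mean log2 level was 10.34 to 10.86 in KOT and 11.33 to 11.34 in KOC mice, against 10.30 to 10.67 in WTT and 11.24 to 11.46 in WTC mice. Of 6 alveolar type 2 markers, 4 fell in Fra-1-/- and 5 in Fra-1+/+ lungs. The share of all clusters that fell was 7.98% in Fra-1-/- and 11.3% in Fra-1+/+ lungs. Of 6 endothelial markers, 6 fell in Fra-1-/- lungs, with means of 10.82 to 10.94 in KOT against 11.35 to 11.59 in KOC mice, and 5 fell in Fra-1+/+ lungs, with 10.87 to 11.00 in WTT against 11.28 to 11.50 in WTC mice. KOT 80 and WTT 160, the mice with the smallest fall of the type 1 markers in their groups, also had the smallest fall of Vegfa. This was not particular to type 1 markers. Both mice also had the smallest falls of the type 2 and endothelial markers and the smallest rise of monocyte and macrophage markers in their groups. Alveolar macrophage markers differed, as WTT 160 had their largest fall in its group. The part of any of these cell types in the fall of Vegfa was not tested.

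**Figure D3:**
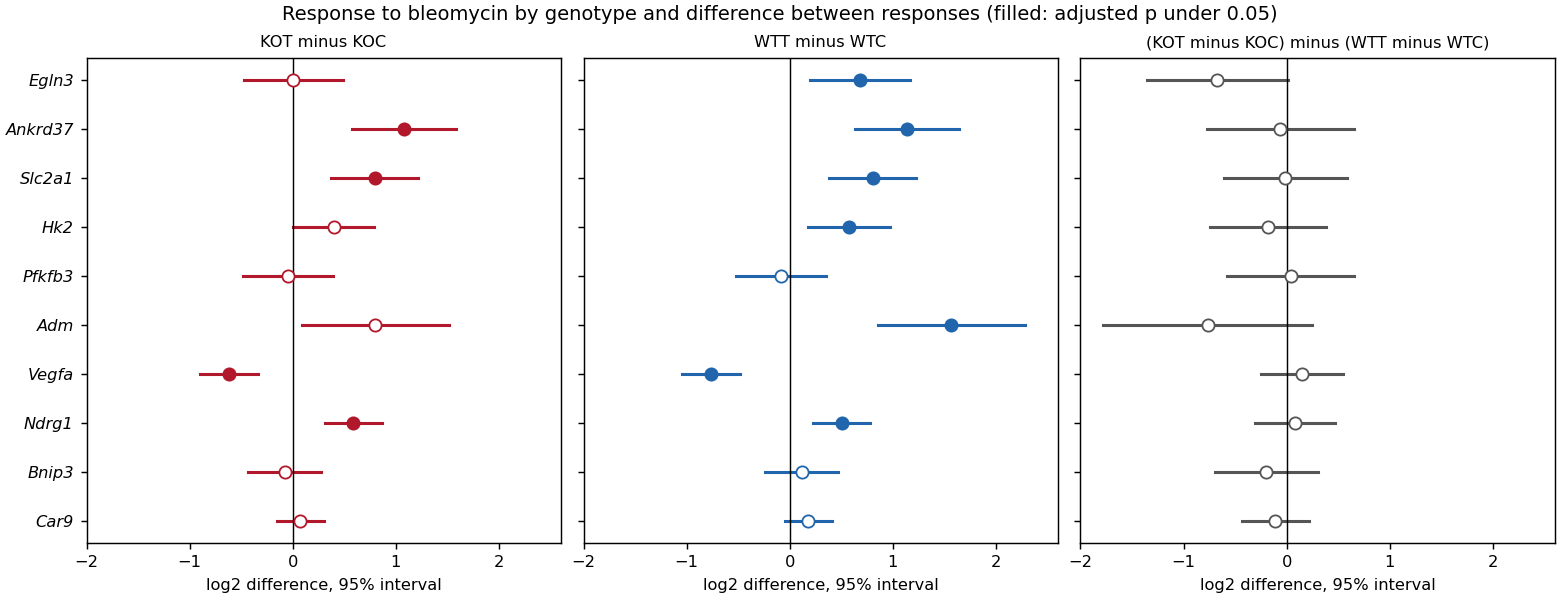
Log2 difference with its 95% interval for the 10 genes in KOT minus KOC (left), WTT minus WTC (centre) and the first minus the second (right), from limma, with filled circles at an adjusted p under 0.05. Ankrd37, Slc2a1, Vegfa and Ndrg1 are filled in both genotypes, Egln3, Hk2 and Adm in Fra-1+/+ lungs, and none in the right panel, where every interval includes 0.

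Ankrd37 and Ndrg1 rose in both genotypes. Ankrd37, a small ankyrin repeat protein known as a direct HIF target, measured 8.56, 7.39 and 8.39 in KOT against 7.06, 6.97 and 7.09 in KOC mice. It measured 8.26, 8.61 and 8.45 in WTT against 7.34, 7.31 and 7.26 in WTC mice. The PBS mice lay within narrow bands and every bleomycin-treated mouse of a genotype was above its band, KOT 80 by the least. It rose by 1.08 in Fra-1-/- lungs (SE 0.23, adjusted p = 0.00939, 2.11-fold) and, in Fra-1+/+ lungs, by 1.14 (SE 0.23, adjusted p = 0.00545, 2.20-fold), and no single mouse left out changed either call. Every KOC mouse was below every WTC mouse, with a difference of -0.27 that did not pass (adjusted p = 0.767). Groups of PBS mice that did not overlap, in either direction, were found in 16.3% of all clusters. Ndrg1, a gene of cell differentiation and stress, measured 9.80, 9.71 and 9.90 in KOT against 9.18, 9.10 and 9.37 in KOC mice. It measured 9.68, 9.69 and 10.18 in WTT against 9.40, 9.37 and 9.27 in WTC mice. The groups did not overlap in either genotype. It rose by 0.59 in Fra-1-/- lungs (SE 0.13, adjusted p = 0.00956) and, in Fra-1+/+ lungs, by 0.51 (SE 0.13, adjusted p = 0.0151), 1.42-fold in the second. The Fra-1+/+ call was lost without WTC 158 (0.47, adjusted p = 0.0544) and by the local-pooled-error test (0.33, adjusted p = 0.375), which compares medians, and without WTT 164 the value was 0.34. Its paralog Ndrg2 went the other way, falling by 0.44 in Fra-1-/- lungs (adjusted p = 0.0318) and, in Fra-1+/+ lungs, by 0.62 (adjusted p = 0.00444). In Fra-1+/+ lungs Ndrg3 also fell, by 0.32 (adjusted p = 0.0447), while Ndrg4 rose by 0.33 (adjusted p = 0.0211). Neither of these passed in Fra-1-/- lungs.

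Bnip3 and Car9 did not pass. Bnip3, a receptor for the removal of mitochondria, measured 9.44, 9.13 and 9.66 in KOT against 9.42, 9.37 and 9.67 in KOC, and 9.34, 9.77 and 9.92 in WTT against 9.47, 9.71 and 9.49 in WTC mice. The groups overlapped in both genotypes, and the differences were -0.08 (95% interval -0.43 to 0.28) and 0.12 (-0.24 to 0.47). The second Bnip3 cluster gave -0.07 and 0.11. In KOT minus WTT it gave -0.25 (95% interval -0.44 to -0.05, limma adjusted p = 0.377), and the brighter cluster gave -0.27 (adjusted p = 0.591). Car9, a carbonic anhydrase of the cell surface that is a common marker of hypoxic tumours, measured 6.48, 6.55 and 6.47 in KOT against 6.18, 6.65 and 6.46 in KOC, and 6.57, 6.58 and 6.60 in WTT against 6.39, 6.30 and 6.51 in WTC mice. All these values were below the array medians of 7.14 to 7.22. Whether the Car9 signal was above background was not tested, so a missing response cannot be told from a missing signal. Every WTT mouse was above every WTC mouse, by a difference of 0.18 (adjusted p = 0.256), and above every KOT mouse, where KOT minus WTT was -0.08 (adjusted p = 0.825). A gap of this kind between KOT and WTT, in either direction, was found in 15.7% of all clusters. Of its paralogs, Car4, a surface enzyme of lung capillaries, fell by 0.76 (adjusted p = 0.0188) in Fra-1+/+ lungs and differed by -0.57 (adjusted p = 0.078) in Fra-1-/- lungs. Car3 fell by 1.89 (adjusted p = 0.0401) and Car14 by 0.86 (adjusted p = 0.0108) in Fra-1+/+ lungs, and neither passed in Fra-1-/- lungs. Car2 and Car12 passed in neither genotype.

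None of the 10 genes differed between the genotypes by the test. In KOT against WTT mice 0 of 10 passed, where 0.0427% of clusters did, and 1 (Adm) had an unadjusted p under 0.05. The second Bnip3 cluster, which is not counted among the 10, also had one by limma (0.0168). In KOC against WTC mice 0 of 10 passed, where 0.0128% of clusters did, and 0 had an unadjusted p under 0.05. The local-pooled-error test also called 0 in both. With 3 mice against 3 an exact permutation test of a single gene cannot go below a two-sided p of 0.1, so the calls given here rest on variances pooled over clusters.

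In most of the genes the same mice lay at the ends of the bleomycin-treated range. WTT 164 was the highest of the 6 in 8 of the 10 genes (all but Ankrd37 and Vegfa), a place it held in 14.4% of all clusters. KOT 80 was the lowest in 6 (Egln3, Ankrd37, Slc2a1, Hk2, Adm and Bnip3), against 17.2% of clusters. Set against the mean of the PBS mice of its genotype, Adm stood at 1.24, -0.01 and 1.18 in KOT 72, 80 and 81, and at 1.07, 1.51 and 2.12 in WTT 160, 161 and 164. Slc2a1 stood at 0.81, 0.52 and 1.05 in the KOT and at 0.39, 0.75 and 1.28 in the WTT mice. Among the PBS mice WTC 76 was the highest of 6 in 5 genes, against 18.4% of clusters. The genes move together within a mouse, so these are not independent counts.

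Neutrophil markers ran in a like order. The mean log2 level of S100a8, S100a9, Cxcr2, Csf3r, Mmp9 and Retnlg was 9.40, 8.25 and 9.82 in KOT 72, 80 and 81, against 8.65 to 9.14 in KOC mice, and 8.84, 10.11 and 11.25 in WTT 160, 161 and 164, against 8.72 to 8.98 in WTC mice. WTT 164 was the highest and KOT 80 the lowest of the bleomycin-treated mice, as in Egln3, Slc2a1 and Adm. Of these 6 markers 0 passed in either response, at medians of 0.20 in Fra-1-/- and 1.24 in Fra-1+/+ lungs. Of 6 monocyte and macrophage markers 5 rose and 1 fell in each genotype, with mean levels of 10.45 to 10.87 in KOT and 9.75 to 9.91 in KOC, against 10.66 to 11.11 in WTT and 9.71 to 9.95 in WTC mice. KOT 80 (10.45) was again the lowest of the bleomycin-treated mice, and WTT 161 (11.11) was the highest. Against the PBS mice of its genotype, KOT 80 also had the smallest rise of fibroblast markers among the bleomycin-treated mice. Its falls of alveolar type 1 and type 2 markers were the smallest too. Cardiac muscle markers, which in mouse lung come from pulmonary veins, passed lower in 0 of 7 in Fra-1-/- and in 5 of 7 in Fra-1+/+ lungs, and smooth muscle markers passed higher in 0 and in 3 of 6. Fibroblast markers passed higher in 2 of 6 in each genotype, and red blood cell markers lower in 2 of 4. The shares of all clusters that rose and fell were 7.42% and 7.98% in Fra-1-/- lungs, and 10.2% and 11.3% in Fra-1+/+ lungs. The part of these cells in the responses of the 10 genes was not tested.

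**Figure D4:**
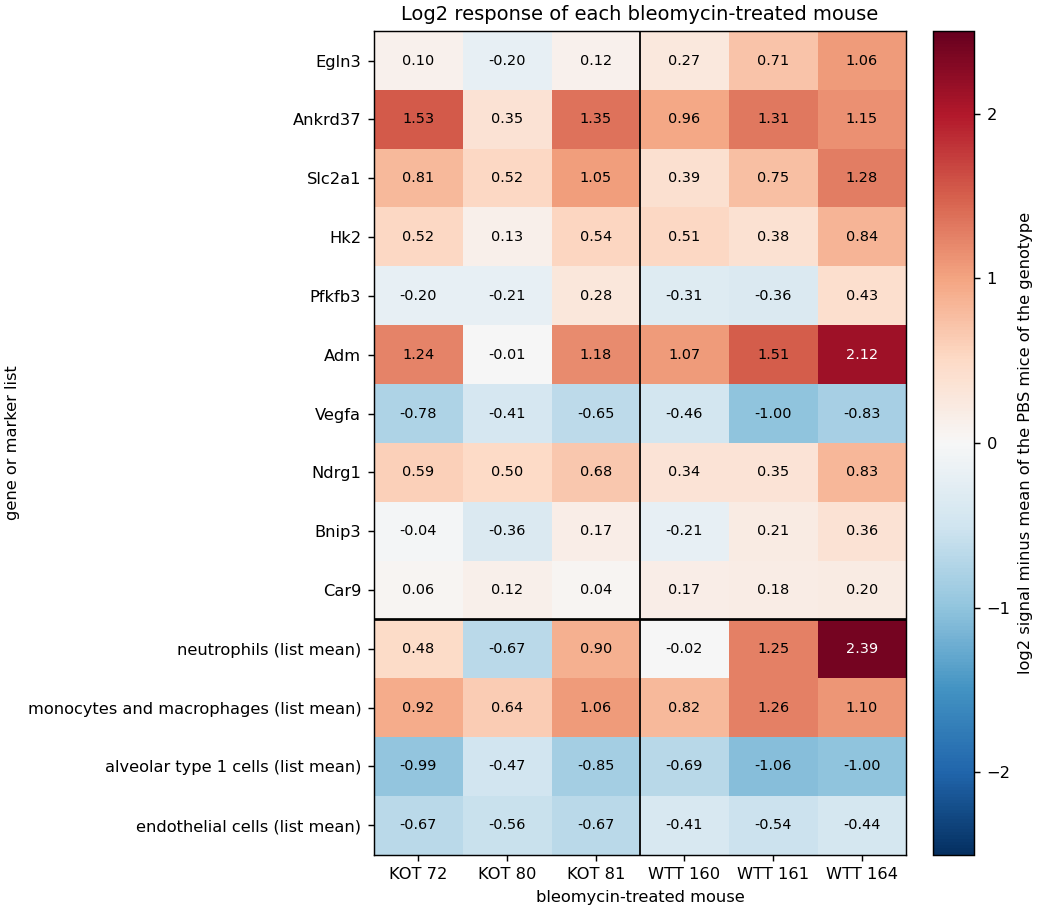
Log2 signal of each bleomycin-treated mouse minus the mean of the 3 PBS mice of its genotype, for the 10 genes and for the mean of 4 lists of cell type markers, with the KOT mice left of the WTT mice and the value in each cell. WTT 164 has the highest values for Adm (2.12), Slc2a1 (1.28), Egln3 (1.06) and the neutrophil list (2.39). KOT 80 has the lowest for Adm (-0.01), Ankrd37 (0.35), the neutrophil list (-0.67) and the monocyte and macrophage list (0.64). It also has the smallest fall of the alveolar type 1 list (-0.47).

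Among the genes of HIF and oxygen sensing, more passed lower than higher in each genotype. Of 10 genes 0 rose and 3 fell in Fra-1-/- lungs, where 7.42% of all clusters rose and 7.98% fell. In Fra-1+/+ lungs 1 rose and 4 fell, where 10.2% of all clusters rose and 11.3% fell. The medians were -0.03 and 0.02. Hif1a lay between 10.42 and 11.07 in KOT and between 10.10 and 10.13 in KOC mice, and between 10.34 and 11.32 in WTT and 9.81 and 9.95 in WTC mice. Every bleomycin-treated mouse was above the PBS mice, and the difference was 0.63 (SE 0.21, adjusted p = 0.0667) in Fra-1-/- and 0.97 (SE 0.21, adjusted p = 0.00741) in Fra-1+/+ lungs. Epas1, the alpha subunit of endothelium, fell by 0.32 (adjusted p = 0.0266) and by 0.40 (adjusted p = 0.00691). Cited2, which competes with HIF for its coactivator, fell by 0.48 and 0.57, past the test in both genotypes. Hif1an, which blocks HIF by hydroxylating an asparagine, differed by -0.28 (adjusted p = 0.0678) in Fra-1-/- and fell by 0.40 (adjusted p = 0.0119) in Fra-1+/+ lungs. HIF proteins were not measured here, and they are set largely by protein stability.

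Of 23 other genes known to be induced by hypoxia, 6 rose and 1 fell in Fra-1-/- lungs, where 7.42% of all clusters rose and 7.98% fell. In Fra-1+/+ lungs 9 rose and 1 fell, where 10.2% of all clusters rose and 11.3% fell. The medians were 0.11 and 0.16, against 0.02 over all clusters. Lox, which cross-links collagen and elastin, rose by 1.43 in Fra-1-/- lungs (adjusted p = 0.00293) and, in Fra-1+/+ lungs, by 1.78 (adjusted p = 7.31e-04). Hmox1, the haem-degrading enzyme that oxidants also induce, rose by 1.24 and 1.71, Pgf, a VEGF relative, by 0.97 and 1.28, and the transcriptional repressor Bhlhe40 by 0.85 and 0.95, each past the test in both. Kdm3a, a histone demethylase, fell by 0.27 (adjusted p = 0.0259) and by 0.23 (adjusted p = 0.0395). The remaining 16 genes in Fra-1-/- and 13 in Fra-1+/+ lungs did not pass. Of 20 measured paralogs of the 10 genes, 0 rose and 2 fell in Fra-1-/- lungs (Egln1 and Ndrg2). These counts are near the shares of all clusters, 7.42% and 7.98%. In Fra-1+/+ lungs 1 paralog rose and 7 fell, where 10.2% of all clusters rose and 11.3% fell. The medians of the paralogs were -0.18 in Fra-1-/- and -0.14 in Fra-1+/+ lungs, against 0.02 over all clusters in both.

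**Figure D5:**
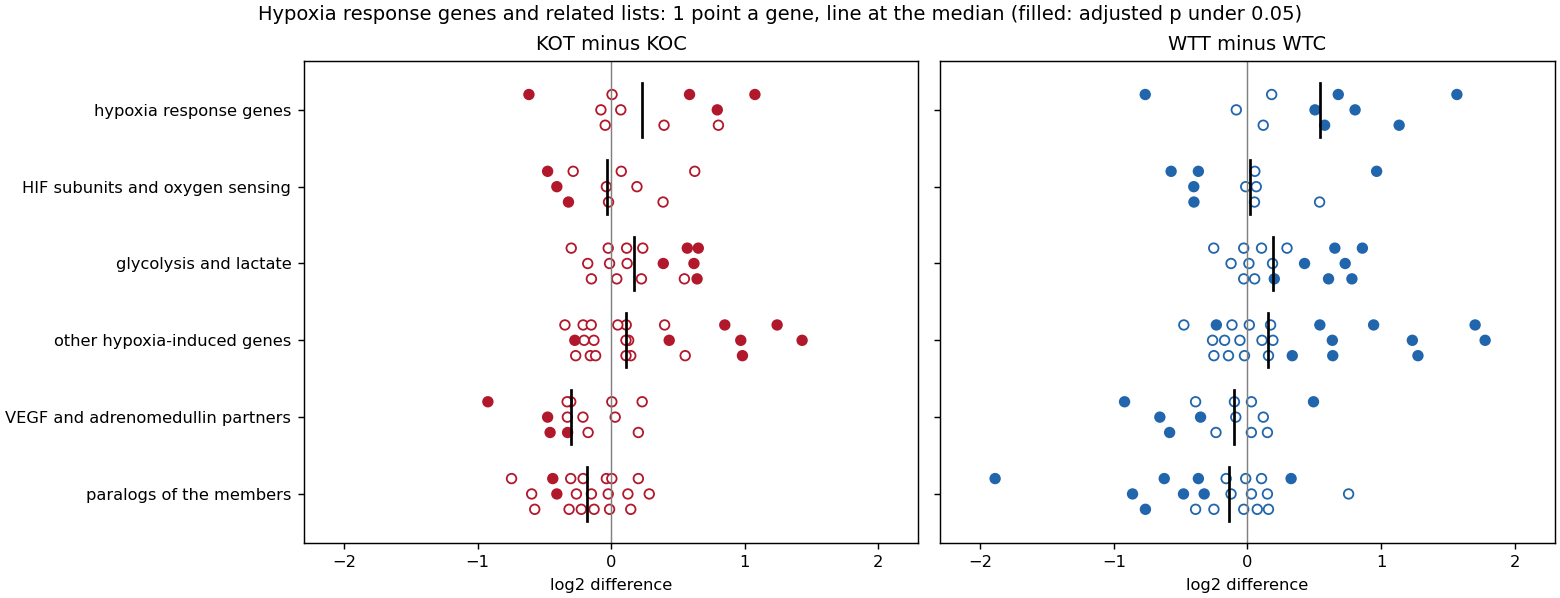
Log2 difference of each gene (1 point a gene, filled at an adjusted p under 0.05, vertical line at the median) for the 10 hypoxia response genes and 5 related lists, in KOT minus KOC (left) and WTT minus WTC (right). The medians of the 10 genes are 0.23 and 0.54, those of the glycolysis list 0.17 and 0.20, and those of the VEGF and adrenomedullin partners -0.30 and -0.10.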

How the data were processed

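Per the labels and methods, the authors extracted lung RNA, hybridised 1 Affymetrix MoGene 1.0ST array per mouse, and with RMA in Affymetrix Power Tools (version not given in the sources used here) quantile-normalised all samples, summarised probes by median polish and deposited log2 values. The 35556 values of an array lay between 2.32 and 14.67, with array medians of 7.14 to 7.22. RMA compresses ratios, and the number of arrays limits the precision.

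Nothing was renormalised. Group means of the 12 arrays were estimated in a linear model with limma 3.58.1 in R 4.3.3 (8 residual degrees of freedom, moderated variances). The 23410 clusters with a symbol were tested in 5 comparisons, two-sided, and called at a Benjamini-Hochberg adjusted p under 0.05. All 4 groups thus share 1 estimate of the spread. The fit was tested on simulated data. Members took the cluster with exactly their symbol and the highest mean. Named list genes were up to 4 in each direction with the smallest p among those called, plus paralogs and binding partners. The members, lists and tests were chosen with earlier results of these data known. The build of the array annotation is not given in the sources used here, so coordinates are given only for the RefSeq promoters. Alternatives were the local-pooled-error test of the methods (LPE, written anew, at an adjusted p under 0.01), 6 arrays, trended moderation, array weights, other normalisations and filters, and leaving out each mouse.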

Additional observations from a re-analysis of the deposited data

How the results depend on the processing

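The 10 genes gave 4 calls in KOT against KOC mice, and 3 to 6 under all alternatives. In WTT against WTC mice they gave 7, 3 (Ankrd37, Adm and Vegfa) at an adjusted p under 0.01, and between 4 and 7 with 1 mouse left out (4 without WTC 157 and 4 without WTC 158). Between genotypes and in the difference between the responses they gave 0 under every alternative that could be run; LPE and the fit of 6 arrays give no value for that difference. In Fra-1+/+ lungs the Egln3 call was also lost with 6 arrays (adjusted p = 0.123), with trended and robust moderation (0.052), with cyclic loess (0.062) and with all clusters of the array (0.0791), and held by LPE (5.16e-04). The Hk2 call was lost by LPE (0.385), with 6 arrays (0.0817) and with all clusters (0.0698). In Fra-1-/- lungs Adm passed by LPE (adjusted p = 3.75e-09), and Hk2 passed with array weights (0.52, adjusted p = 0.0162). The cause of these shifts was not tested.

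The count of all clusters called in KOT against KOC mice was 3604, and 1891 by LPE, 7118 with array weights, 1574 at an adjusted p under 0.01 and 1854 to 3945 with 1 mouse left out. In WTT against WTC mice it was 5027, and 1855 by LPE, 2363 at an adjusted p under 0.01 and 3304 to 5211 with 1 mouse left out. In KOT against WTT mice it was 10, and 165 by LPE, 23 with 6 arrays, 3 with trended and robust moderation, 24 with array weights, 6 with all clusters, 1 at an adjusted p under 0.01 and 1 to 16 with 1 mouse left out. In KOC against WTC mice it was 3, and 418 by LPE, 1 with 6 arrays and 2 to 19 with 1 mouse left out. In the difference between the responses it was 0, and 0 to 3 with 1 mouse left out (3 without KOC 67).

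No called value changed sign. Some values that passed no test did, most of them near 0. Ankrd37 in KOT minus WTT, at -0.33, turned only without KOT 80. In KOT minus KOC, Egln3 was -0.0117 with cyclic loess and -0.0367 with equal array medians, and -0.0469 to 0.109 with 1 mouse left out. Bnip3 was 0.0263 by LPE and 0.0119 with array weights, and -0.20 to 0.0648 with 1 mouse left out, where Pfkfb3 ran between -0.21 and 0.0383 and Car9 between -0.0526 and 0.18. In WTT minus WTC, Bnip3 ran between -0.00132 and 0.28 and Pfkfb3 between -0.34 and 0.0563 with 1 mouse left out. In KOT minus WTT, Ndrg1 was 0.11 by LPE. With 1 mouse left out, Vegfa ran between -0.0182 and 0.25, Slc2a1 between -0.35 and 0.0959, Ankrd37 between -0.55 and 0.0358, Ndrg1 between -0.13 and 0.12 and Pfkfb3 between -0.08998 and 0.33. In KOC minus WTC, Adm was 8.741e-04 and Pfkfb3 was -0.00916 with array weights, and Pfkfb3 was -0.00269 with cyclic loess. With 1 mouse left out, Bnip3 ran between -0.16 and 6.267e-04, Adm between -0.22 and 0.0981, Pfkfb3 between -0.0388 and 0.14, Hk2 between -0.25 and 0.073 and Car9 between -0.0811 and 0.15. In the difference between the responses, Slc2a1 was 0.00365 with cyclic loess, Ankrd37 was 0.18 with array weights and Pfkfb3 was -0.0103 with equal array medians. With 1 mouse left out, Slc2a1 ran between -0.22 and 0.22, Ankrd37 between -0.28 and 0.30, Ndrg1 between -0.00273 and 0.24, Pfkfb3 between -0.12 and 0.29, Hk2 between -0.30 and 0.0186 and Car9 between -0.23 and 0.0014. Array depth sets no counting limit here, and with 3 mice a group a difference whose interval includes 0 cannot be told from 0.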
